A study of Homo sapiens with 12 samples.

Results

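Silencing of HCP5 was examined in KYSE150, an established human cell line of esophageal squamous cell carcinoma, by comparing the 3 RNA-seq libraries labelled as HCP5-silenced with the 3 control libraries of the same line, paired by the last digit of their titles. These are 6 of the 12 libraries deposited. The other 6 are the same 2 treatments in a second line of this carcinoma, KYSE510, and enter the main fit, where they share the estimate of spread with KYSE150, and a comparison of the lines. The genes described are those with an RPKM (a read count divided by the exon length of the gene and by the assigned reads of its library) of 0.5 or more in 3 or more of the 6 KYSE150 libraries, which held for 15971 of the 38516 genes in the table. Per the labels, all cells were grown in RPMI-1640 medium with fetal bovine serum and their total RNA was extracted with TRIzol. The titles begin with "sh4" for silenced and "shc" for control libraries. The labels do not say what these stand for, which sequences were used, whether 1 clone or a pool was grown, or whether replicates are separate cultures. The p-values below therefore measure the spread between these libraries, which may be technical.

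HCP5 is a long non-coding RNA gene of the major histocompatibility complex on chromosome 6, between the class I-like genes MICA and MICB. The title of the series names it with apoptosis, c-Myc (the product of MYC) and UTP3. MYC encodes a transcription factor that drives cell growth, with genes of ribosome production among its best known targets. UTP3 is a subunit of the small-subunit processome, the nucleolar assembly that makes the small ribosomal subunit. Squamous carcinoma cells keep part of the programme of stratified epithelium, in which basal cells carry the keratins KRT5 and KRT14 and hold to the basement membrane by hemidesmosomes.

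The 6 libraries held 20035025 to 28202422 reads assigned to genes, and each silenced library (at least 26281327) was deeper than each control (at most 22700935). The markers of the labelled cell type were present: all 10 squamous epithelium markers listed passed the expression filter, with a summed level of 1080 to 1820 RPKM in controls and 1390 to 3080 RPKM after silencing. Of the fibroblast and endothelial markers 0 were kept, with sums of 0.0747 to 0.236 and 0.217 to 0.399 RPKM over the 6 libraries. PTPRC, the common leukocyte antigen, was at most 0.00455 RPKM, MS4A1 and LYZ were at 0 in all 6 libraries, and 1 leukocyte marker was kept, the lysosomal protein gene CD68. Simple-epithelium markers, keratins KRT8 and KRT18 among them, summed to 1220 to 1520 RPKM with no separation of the groups, and 0 of the 4 kept passed. The part of cell makeup in the results was not tested, and in bulk libraries fewer cells of a type and less RNA per cell cannot be told apart.

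HCP5 itself was read at a low level. Its RPKM was 0.779, 0.745 and 0.786 in control replicates 1, 2 and 3 and 0.315, 0.418 and 0.579 in their silenced partners. All 3 silenced values lay below all 3 controls, and the gap was smallest in pair 3, where the 95% exact Poisson interval of the silenced library (0.428 to 0.766, from 49 reads) overlapped that of its control (0.594 to 1.02, from 56 reads). The mean went from 0.770 ± 0.0220 to 0.437 ± 0.133 RPKM (SD, n = 3), or 0.568 of control. On the log2(RPKM + 0.5) scale, which understates the change of low genes, the difference was -0.45 (SE 0.11). With limma, fitted with the pairs as a block over all genes kept, the adjusted p was 0.0522, just short of the threshold of 0.05. The exact two-sided permutation test gave 0.1, the smallest p that 3 against 3 libraries allow. Centring each library on its median gave -0.57 with an adjusted p of 0.0354 in the same limma fit, and the fit without the block gave 0.247. HCP5 shares 157 exonic bases with a gene on the opposite strand and 62 with MICA on its own, and without strand in the counting the reads of both cannot be told apart.

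MYC, the transcription factor gene of the title, was higher in the silenced library of every pair. Control replicates 1, 2 and 3 had 7.97, 4.68 and 9.76 RPKM, and their silenced partners 9.66, 6.17 and 11.1 RPKM. The groups overlapped, because replicate 2 was low and replicate 3 high under both treatments. Within pairs MYC rose, with a log2 change of 0.27 (SE 0.06) and an adjusted p of 0.0398 in limma. That call was lost without the block (adjusted p 0.578), with the 6 libraries alone (0.125), after centring (change 0.14, adjusted p 0.14) and without any 1 pair (0.0654 to 0.127). UTP3, the processome gene, had 81.4, 83.5 and 69.9 RPKM in controls and 72.1, 61.5 and 67.4 RPKM after silencing. Silenced replicate 1 lay above control replicate 3, so the groups overlapped. The paired difference for UTP3 was -0.22 (SE 0.09, limma adjusted p 0.142), and exact permutation p-values were 0.2 for UTP3 and 0.6 for MYC.

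**Figure D1:**
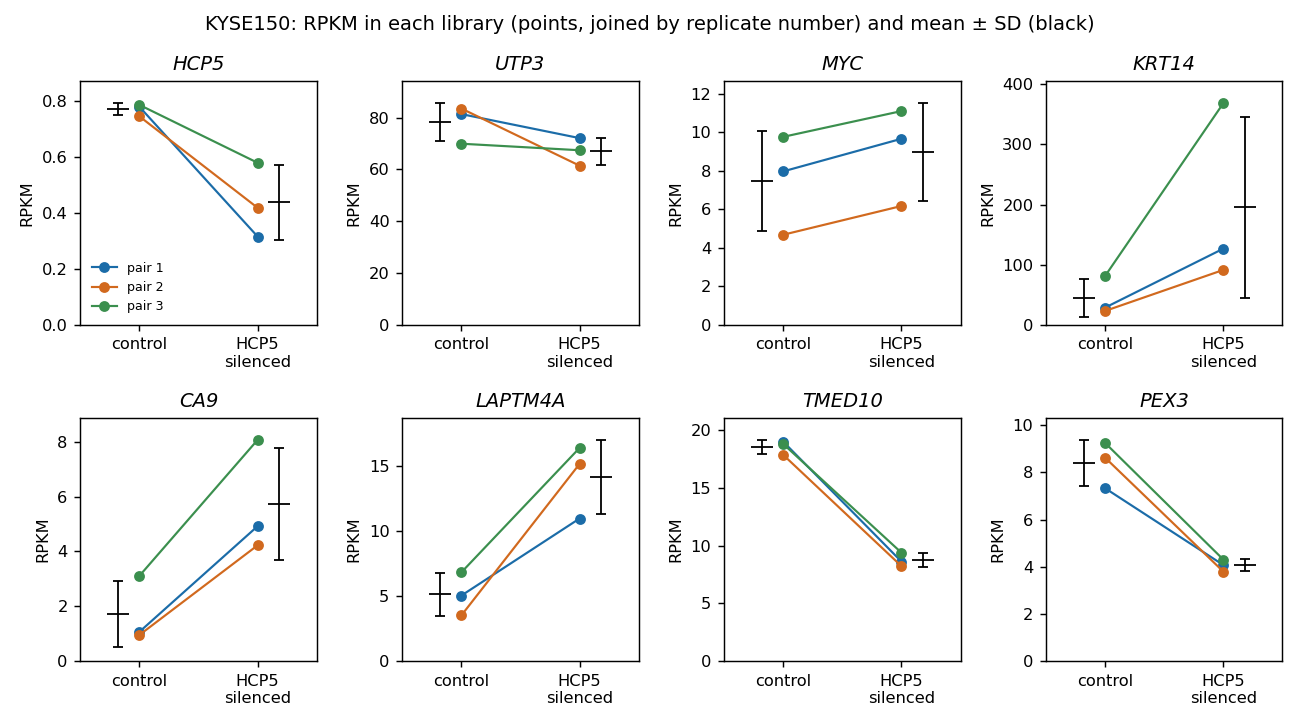
RPKM (vertical axis, from 0) of 8 genes in the 3 control and 3 HCP5-silenced KYSE150 libraries, with lines joining libraries of the same replicate number and black bars showing mean ± SD (n = 3). HCP5, TMED10 and PEX3 are lower and KRT14, CA9 and LAPTM4A higher in every silenced library than in every control, while the groups overlap for UTP3 and MYC.

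Across the transcriptome, 1420 of 15971 genes passed the threshold in the paired limma fit, 8.89% of the genes tested. Of these, 1067 rose (6.68% of genes tested) and 353 fell (2.21%), and 45 changed by 1 or more on the log2 scale (34 rose, 11 fell). The changes were mostly small, with a median of 0.44 among rises and -0.43 among falls. Without regard to a test, 2319 genes (14.5%) were higher in every silenced library than in every control and 926 (5.8%) were lower in every one. Counted by pairs, 6364 genes (39.8%) were higher in 3 of 3 and 2310 (14.5%) lower in 3 of 3. In the fit, 10836 of the 15971 genes were higher and 5135 lower, whether called or not. All genes together were shifted upward by a median of 0.10 on the deposited scale, with medians of 0.05, 0.16 and 0.07 in pairs 1, 2 and 3.

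The balance of rises and falls followed this shift. After each library was centred on its median, which moves the median of all genes to -0.03, 414 genes rose (2.59%) and 636 fell (3.98%), so that 39.4% of calls were rises against 75.1% as deposited. Quantile normalization gave 661 rises and 624 falls (51.4% rises). All 414 centred rises and 343 of the centred falls were among the calls above, and no gene past both thresholds changed sign. The number of calls rested on the pairing and on each pair. Without the block 72 genes rose (0.451%) and 24 fell (0.15%), all within the 1420, the 6 libraries alone gave 8, and leaving out pair 1, 2 or 3 left 0, 80 or 165. With pair 1 left out, 4273 genes still had an unadjusted limma p under 0.05. Since every silenced library was deeper, reads were also thinned to the depth of the shallowest library, which gave 1156 calls.

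First among the 12 largest rises was KRT14, the keratin of basal squamous cells, which had 28.5, 23.0 and 81.2 RPKM in control replicates 1, 2 and 3 and 127, 91.2 and 369 RPKM in silenced ones. Replicate 3 was the highest under both treatments, and each silenced library lay above every control. The mean of KRT14 was 4.42 times that of controls, and the paired change was 2.09 (SE 0.14, limma adjusted p 0.00531, and 0.0864 without the block). CA9, a carbonic anhydrase known as a hypoxia target, had 1.08, 0.963 and 3.11 RPKM in controls and 4.92, 4.22 and 8.06 after silencing, a rise of 1.57 (SE 0.17), although 643 of its exonic bases overlap ARHGEF39 on the opposite strand. NDRG1, a stress and differentiation gene also induced by low oxygen, had 3.19, 2.52 and 4.47 RPKM against 8.07, 7.04 and 10.2, a rise of 1.22 (SE 0.08). S100A9, a calcium-binding protein of inflamed and differentiating epithelium, had 2.51, 1.60 and 3.51 against 6.40, 4.12 and 8.10 RPKM, a rise of 1.14 (SE 0.14).

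Other large rises came from genes of varied function. LAPTM4A, a lysosomal membrane protein, had 5.05, 3.53 and 6.84 RPKM in controls and 11.0, 15.2 and 16.4 after silencing, 2.76 times the control mean (change 1.40, SE 0.17). DLG4, a scaffold protein best known from synapses, had 0.469, 0.899 and 1.03 RPKM against 2.09, 2.32 and 2.46 (change 1.13, SE 0.12). MT2A, a metal-binding metallothionein, had 498, 442 and 614 RPKM against 1333, 972 and 1079 (change 1.12, SE 0.16). These 3 genes, with NDRG1, were the 4 of the 12 largest rises that also passed without the block, with adjusted p-values of 0.0224, 0.0103, 0.0178 and 0.0189 for LAPTM4A, DLG4, MT2A and NDRG1. Of the 12, 12 passed after centring.

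The acute-phase genes SAA1 and the read-through SAA2-SAA4 were also among the 12 largest rises. SAA1 had 2.28, 1.46 and 1.27 RPKM in controls and 6.37, 5.05 and 3.20 after silencing (change 1.29, SE 0.09), and SAA2-SAA4 changed by 1.13 (SE 0.13). SAA2-SAA4 shares 267 exonic bases with SAA2, which rose by 0.84, so reads of this family cannot be assigned with certainty. ZBED2, a zinc-finger gene, had 1.94, 0.759 and 2.94 RPKM against 6.11, 3.56 and 10.3, a change of 1.59 (SE 0.19). The antisense transcript ST7-AS1_2 rose by 1.09 (SE 0.08), but rested on 2 to 14 reads per library and missed the threshold with voom (adjusted p 0.0516). RNY3P15, a Y RNA pseudogene with a change of 1.69, rested on 0 to 8 reads per library and lies wholly within an exon of UHRF1BP1 on the same strand. Its value is a count of very few reads, and control replicate 1 had 0.

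Among falls, the most even change was that of TMED10, a cargo receptor between endoplasmic reticulum and Golgi. TMED10 had 19.0, 17.8 and 18.8 RPKM in controls and 8.62, 8.23 and 9.39 RPKM after silencing. The SD was 0.605 RPKM around a mean of 18.5 in controls and 0.590 around 8.75 after silencing (n = 3), a ratio of 0.472. TMED10 fell by 1.04 (SE 0.05, limma adjusted p 0.00420, and 0.000196 without the block). PEX3, which starts peroxisome membrane assembly, had 7.32, 8.61 and 9.24 RPKM against 4.08, 3.80 and 4.31 (change -0.96, SE 0.08). VAMP3, a SNARE of recycling endosomes, had 5.66, 5.56 and 7.48 against 2.81, 3.13 and 3.37 RPKM (change -0.89, SE 0.07). TNIP2, an inhibitor of NF-kappaB signalling, had 21.1, 23.2 and 22.8 against 12.6, 11.4 and 12.03 RPKM (change -0.87, SE 0.07).

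HMGN5, a nucleosome-binding protein, had 4.05, 6.19 and 3.99 RPKM in controls and 2.27, 1.84 and 2.548 after silencing (change -0.93, SE 0.18). HMGN5, TMED10, PEX3, VAMP3 and TNIP2 were the 5 of the 12 largest falls that also passed without the block. HMGN5 was at most 0.01725 RPKM in KYSE510, so those libraries carried little spread into its estimate. With the 6 KYSE150 libraries alone its limma adjusted p was 0.101. IGFBP3, a secreted binder of insulin-like growth factors, had 5.42, 3.22 and 3.24 RPKM against 2.45, 1.58 and 1.83 (change -0.84, SE 0.11). The other 6 of the 12 largest falls were short non-coding genes or a pseudogene. The mitochondrial tRNA genes MT-TI and MT-TF fell by 1.09 and 0.87 on the log2 scale, and SNRPFP1, a processed pseudogene, by 0.96. RNU6-1053P, SNORD3C and MIR4742 rested on 5 to 17, 14 to 76 and 1 to 5 reads, so their changes of -1.08, -1.07 and -1.12 are of low precision. The 12 largest falls all passed after centring.

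Of the pathway lists, that of squamous epithelium had the largest share of members past the threshold. Of 19 keratins and lineage factors kept, 11 rose and 0 fell, against 6.68% of all genes tested that rose. Over all genes tested 2.21% fell, and both shares stand beside the counts of every list below. The median change of the 19 was 0.48 as deposited and 0.35 after centring, beside 0.10 and -0.03 for all genes kept. After KRT14, the changes were KRT16 1.09, KRT10 0.995, KRT6A 0.94, KRT17 0.80, KRT5 0.58 and KRT6C 0.50. KRT5, the partner of KRT14 in basal cells, had 531, 416 and 875 RPKM in controls and 746, 607 and 1423 RPKM after silencing, with control replicate 3 above silenced replicates 1 and 2. KRT6A, KRT16 and KRT17, keratins of injured and proliferating epithelium, also overlapped between groups, since replicate 3 carried the highest and replicate 2 the lowest value under both treatments. KRT16 for example had 10.8, 3.11 and 18.2 RPKM against 19.0, 5.27 and 64.8.

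Among the lineage factors the changes were smaller. TP63, the master regulator of stratified epithelium, had a mean of 15.4 ± 0.863 RPKM in controls and 20.1 ± 2.09 after silencing (SD, n = 3; change 0.37, SE 0.06, limma adjusted p 0.0222). The transcription factor genes TFAP2C and KLF5 rose by 0.46 and 0.38, and FAT1, a giant cadherin often mutated in this carcinoma, by 0.55. Keratins of a subfamily are near-identical over parts of their sequence, and how the authors' counting split such reads is not given in the sources used here. After centring 3 of the 19 rose, and without the block 0 did. The summed level of the 10 squamous markers, 9 of which rose, moved with this group, as given above.

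Adhesion and matrix genes followed. Of 28 kept genes for hemidesmosomes, collagens and matrix, 10 rose and 0 fell (median 0.30, and 0.17 after centring, when 6 rose). The hemidesmosome genes were ITGA6 (0.77), COL17A1 (0.68), ITGB4 (0.62), and the laminin-332 chains LAMB3 (0.44) and LAMA3 (0.30). COL17A1, the transmembrane collagen of the hemidesmosome, had 53.7, 49.0 and 66.2 RPKM in controls and 94.3, 79.2 and 96.8 RPKM after silencing, with no overlap. ITGA6, its integrin partner, had 43.6, 25.3 and 48.2 RPKM against 72.5, 46.5 and 78.9, where silenced replicate 2 lay within the control range. TNC, tenascin C of remodelled matrix, had 6.31, 3.003 and 7.63 RPKM against 14.7, 6.23 and 12.9 (change 0.94, SE 0.10), so its silenced replicate 2 lay below 2 of the controls. COL5A3, MMP14, COL4A5 and TIMP2 completed the 10, with changes of 0.73, 0.48, 0.37 and 0.33. Without the block 1 of the 28 passed.

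Of 16 genes for the cornified envelope, desmosome and terminal differentiation, 6 rose and 0 fell (median 0.24, and 0.12 after centring, when 4 rose). They were S100A9, the matrix protein ECM1 (0.65), and the desmosome genes PKP1 (0.56), PKP3 (0.50), DSG3 (0.48) and JUP (0.31). PKP1, a plakophilin, had 7.80, 6.93 and 9.65 RPKM in controls against 10.8, 10.8 and 15.1. None of these 6 was called without the block. Of 15 genes of the epithelial-mesenchymal transition, 0 passed in limma in either direction at a median of 0.18 (0.06 after centring), 4 had an unadjusted p under 0.05, and voom called 4.

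**Figure D2:**
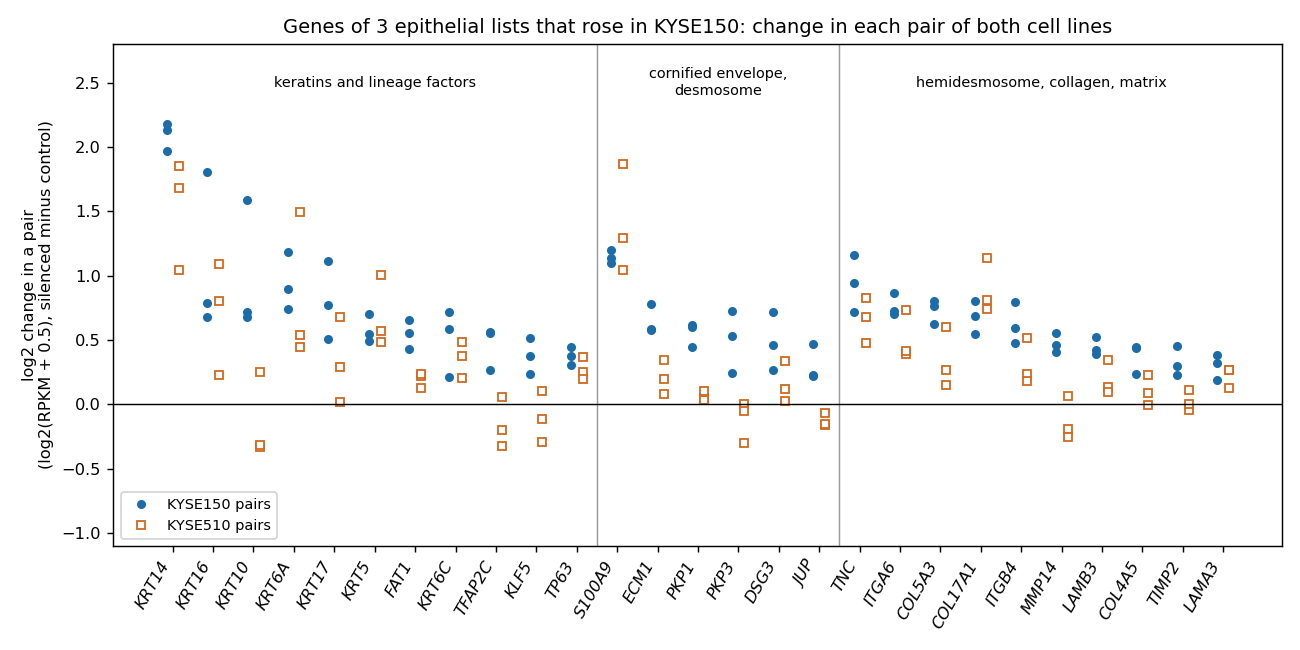
Change in each same-numbered pair (vertical axis, silenced minus control, log2(RPKM + 0.5)) of the genes of 3 epithelial lists that rose in KYSE150, for the 3 KYSE150 pairs (filled circles) and the 3 KYSE510 pairs (open squares). The genes were chosen by their KYSE150 change, so all circles lie above 0, while squares reach below 0 for KRT10, TFAP2C, KLF5, PKP3, JUP, MMP14, COL4A5 and TIMP2.

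The hypoxia and glycolysis list held 40 kept genes, of which 12 rose, against 6.68% of all genes tested, and 0 fell. In the fit as deposited 39 of the 40 were higher, beside 10836 of 15971 genes overall. The median was 0.21, and 0.08 after centring, when 9 rose and 1 fell. Behind CA9 and NDRG1 came SLC16A3 (0.92), which exports lactate, ENO2 (0.89), a neuronal form of the glycolytic enzyme enolase, and EPAS1 (0.77), which encodes the hypoxia-inducible factor HIF-2 alpha. EPAS1 had a mean of 3.19 ± 0.0107 RPKM in controls and 5.80 ± 0.304 after silencing (SD, n = 3). The glycolytic genes PGAM1, HK2 and PKM rose by 0.59, 0.25 and 0.20, and the glucose transporter gene SLC2A3 by 0.58. LDHA (0.21, adjusted p 0.0828) and VEGFA (0.07, adjusted p 0.514), both textbook hypoxia targets, did not pass in limma. Without the block 3 of the 40 passed.

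Metallothioneins bind zinc and copper and are induced by these metals. Of 8 kept genes of metallothioneins and zinc response, 4 rose and 0 fell, with a median of 0.52 (0.40 after centring, when 2 rose). MT1E had 15.9, 14.5 and 18.6 RPKM in controls and 35.7, 33.5 and 30.1 after silencing, a rise of 0.999 (SE 0.11) that also passed without the block (limma adjusted p 0.00347). MT1X rose by 0.64 and the zinc transporter gene SLC39A14 by 0.41. Metallothionein genes are close paralogs, so reads may be shared among them.

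Lysosome genes were mostly higher in the fit. Of 39 kept, 6 rose, against 6.68% of all genes tested, 0 fell, and 37 were higher, beside 10836 of 15971 genes overall (median 0.22, and 0.09 after centring, when 4 rose, while 1 passed without the block). LAPTM4A led, followed by the membrane proteins LAMP2 (0.55) and SCARB2 (0.42), the protease CTSB (0.41), the transcription factor TFE3 (0.39) and prosaposin, PSAP (0.34). LAMP2 had 5.55, 4.97 and 6.27 RPKM in controls and 7.66, 8.27 and 9.36 after silencing.

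Apoptosis is the process in the series title. Of 33 kept pro-apoptotic genes, 7 rose and 1 fell, against 6.68% and 2.21% of all genes tested. The median of the 33 was 0.17 (0.05 after centring, when 2 rose and 1 fell). Among the rises, BNIP3L, a mitochondrial BH3-like protein also induced by low oxygen, had 7.60, 7.71 and 7.87 RPKM in controls and 10.9, 12.01 and 12.4 after silencing (change 0.58, SE 0.09, limma adjusted p 0.0220). The death receptor genes TNFRSF1A and TNFRSF10B rose by 0.42 and 0.36, and their adaptor FADD by 0.31. FADD shares 1011 exonic bases with AP000879.1 on the opposite strand. PMAIP1, which encodes the BH3-only protein NOXA, rose by 0.40 and the mitochondrial protease gene HTRA2 by 0.38, which shares 625 exonic bases with LOXL3 and 483 with AUP1 on the opposite strand. AIFM1, the apoptosis-inducing factor of mitochondria, fell by 0.21.

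Genes that restrain apoptosis were among the rises as well. Of 13 kept anti-apoptotic genes, 2 rose, against 6.68% of all genes tested, and 0 fell (median 0.13, and 0.01 after centring, when 1 rose). MCL1, a short-lived BCL2 relative, had a mean of 28.4 ± 3.84 RPKM in controls and of 40.3 ± 3.60 after silencing (SD, n = 3), without overlap (change 0.50, SE 0.05, limma adjusted p 0.0102). BCL2L1, which encodes BCL-XL, rose by 0.35, but 1424 of its exonic bases overlap ABALON on the opposite strand. None of the called genes of either list passed without the block.

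Of 26 kept p53 target genes, 3 rose, against 6.68% of all genes tested, and 0 fell (median 0.19, and 0.07 after centring, when 1 rose). The 3 were SESN2 (0.47), MDM2 (0.40) and TNFRSF10B. MDM2, the ubiquitin ligase of p53, had 4.38, 3.77 and 4.10 RPKM against 5.34, 5.83 and 5.52. Of 37 genes of the unfolded protein and ATF4 stress responses, 4 rose, against the same 6.68%, and 0 fell. The 4 were TRIB3 (0.60), SESN2, EDEM1 (0.43) and DDIT4 (0.41), which shares 847 exonic bases with its antisense gene DDIT4-AS1. The median of that list was 0.12, and 0.00 after centring, when 2 rose. Heat shock chaperones split, with HSPB1 (0.64) and HSPA1B (0.34) rising and HSP90AB1 and HSPD1 falling by 0.34 and 0.22, among 22 kept. HSPA1B is nearly identical to HSPA1A, so its reads are uncertain.

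Ribosome production genes lay on the other side. Of 42 kept genes of the small-subunit processome, 0 rose and 5 fell, against 2.21% of all genes tested that fell, and 30 of the 42 were lower. Their median was -0.11 as deposited and -0.23 after centring, when 6 fell. MPHOSPH10, another processome subunit, had 27.95, 28.3 and 23.2 RPKM in controls and 22.1, 17.7 and 20.2 after silencing (change -0.40, SE 0.09, limma adjusted p 0.0438). The RNA acetyltransferase NAT10 fell by 0.38, NOP14 by 0.36, KRR1 by 0.30 and the rRNA methyltransferase fibrillarin, FBL, by 0.29. NOP14 shares 605 exonic bases with its antisense gene NOP14-AS1. The median in KYSE510 was -0.06, beside -0.02 for all genes kept, and none of the 42 passed without the block.

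Large-subunit assembly and RNA polymerase I genes were alike in KYSE150, with 0 rises and 5 falls of 52 kept and 42 lower (median -0.13, and -0.25 after centring, when 7 fell). In KYSE510 their median was -0.008, above the -0.024 of all genes kept. NCL, nucleolin, had 801, 831 and 620 RPKM in controls and 638, 526 and 485 after silencing, with silenced replicate 1 above control replicate 3 (change -0.45, SE 0.10). NOC3L, a nucleolar large-subunit factor, had 29.7, 29.4 and 25.1 RPKM against 21.6, 20.01 and 19.7 (change -0.45, SE 0.06) and also passed without the block (limma adjusted p 0.0367). DDX27 (-0.39), NOP2 (-0.34) and EBNA1BP2 (-0.31) fell as well, and NOP2 shares 2550 exonic bases with AC006064.6 on the same strand. Of 78 cytosolic ribosomal protein genes 0 rose and 6 fell (median -0.01, and -0.13 after centring, when 11 fell). As a list they did not move 1 way, with 39 higher and 39 lower and medians of 0.00, 0.14 and -0.16 in pairs 1, 2 and 3. After quantile normalization the median was 0.02 and 3 fell, and without the block 1 fell. The largest falls were RPL23A (-0.46), RPL26 (-0.45) and RPL22 (-0.39), then RPL12, RPL5 and RPS6. RPL26 had 498, 523 and 507 RPKM in controls and 400, 366 and 351 after silencing. Ribosomal protein genes have many processed pseudogenes, so reads may be shared with them.

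The wider MYC-induced genes were mixed. Of 56 kept, 2 rose, 3 fell and 51 did not pass, with a median of -0.03 (-0.15 after centring). CCND2, a G1 cyclin, had 36.1, 31.8 and 36.7 RPKM in controls and 45.0, 51.9 and 52.9 after silencing (change 0.51, SE 0.08) and passed without the block (limma adjusted p 0.0325). PPAT, the first enzyme of purine synthesis, rose by 0.48, while NCL, FBL and the chaperonin HSPD1 fell. In the MYC, MAX and MXD network, 4 of 20 rose and 0 fell: MXD4 (0.48) and MXD1 (0.46), whose products compete with MYC for MAX, SKP2 (0.38), a ubiquitin ligase subunit, and MYC. The network's median was 0.09 as deposited and -0.03 after centring, beside 0.10 and -0.03 for all genes, and 1 of the 20 rose after centring and 1 without the block.

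Mitochondrially encoded RNA made up a smaller share of reads in the silenced library of each pair, although the groups overlapped. Reads on the mitochondrial chromosome made up 8.85%, 8.91% and 7.86% of reads in control replicates 1, 2 and 3 and 8.19%, 7.68% and 7.49% in silenced ones, lower in 3 of 3 pairs. Silenced replicate 1 had a higher share than control replicate 3. The part of this share in the other results was not tested. Of 22 mitochondrial tRNA genes kept, 0 rose and 10 fell, against 2.21% of all genes tested that fell, at a median of -0.36 (0.05 in KYSE510). MT-TI had 1276, 1188 and 597 RPKM in controls and 578, 461 and 348 after silencing, and MT-TF had 1026, 1003 and 592 against 478, 510 and 407. Control replicate 3 lay nearest to the silenced libraries for both, and neither MT-TI nor MT-TF passed without the block (limma adjusted p 0.0753 and 0.118). Of 13 protein-coding genes of this genome, 2 fell, MT-ND3 by 0.47 and MT-ND2 by 0.36, at a median of -0.18 (-0.30 after centring and 0.00 after quantile normalization). In the fit 10 of the 13 were lower and 3 higher, and after quantile normalization 1 rose and 2 fell. Without the block 0 of the 13 passed. The nuclear respiratory chain genes did not follow: of 60 kept, 1 passed, UQCRB of complex III, which fell by 0.37, and the median was 0.09 (-0.04 after centring).

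**Figure D3:**
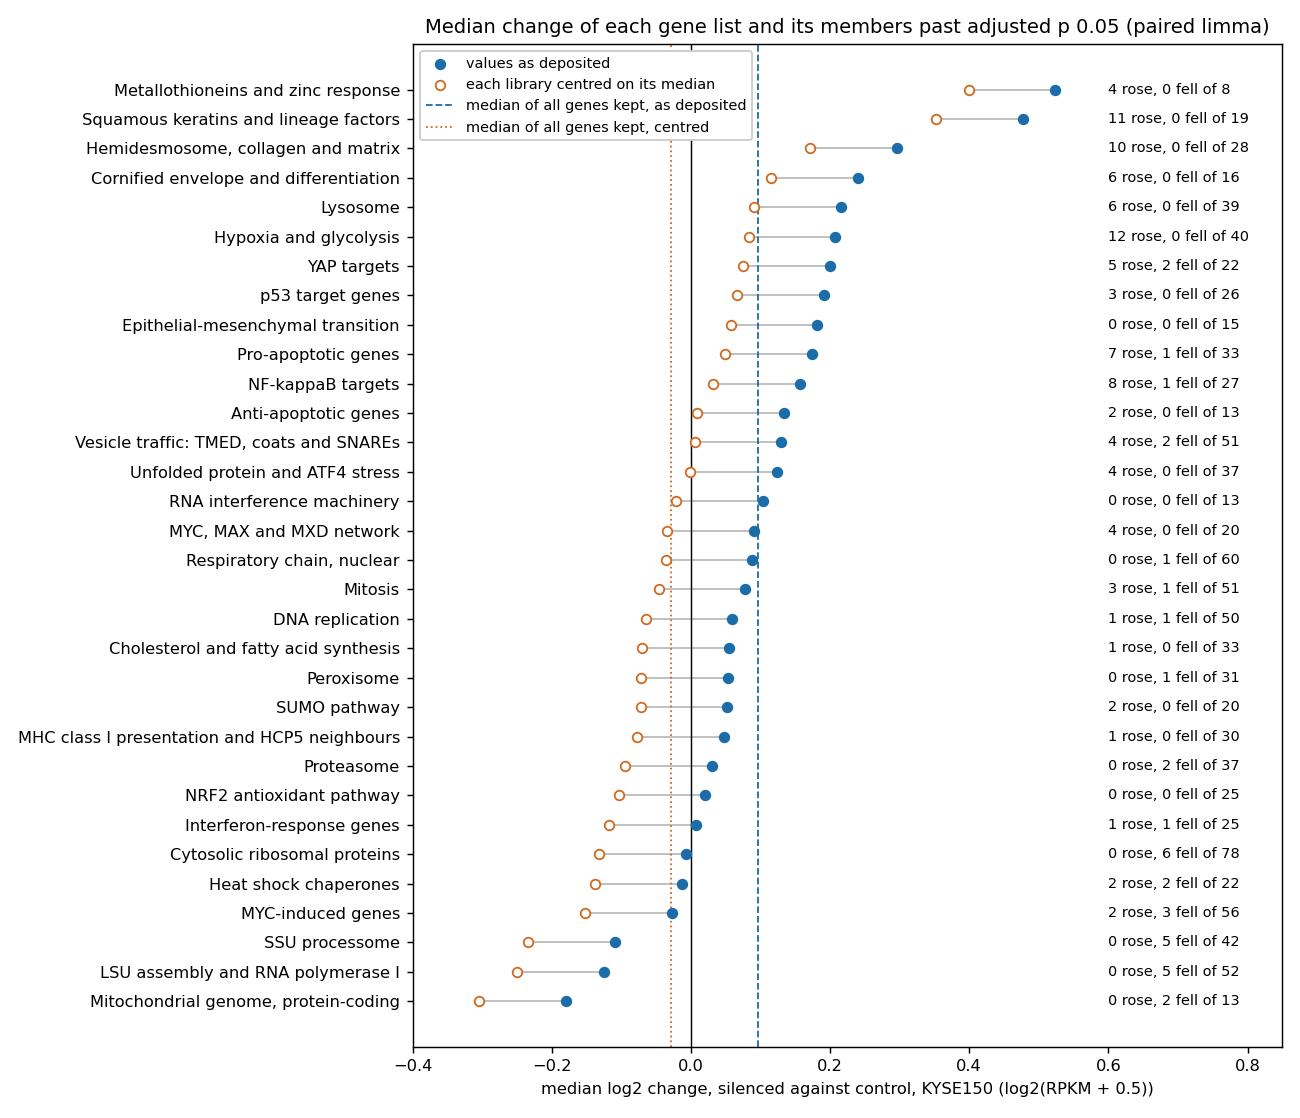
Median log2 change (horizontal axis) of each gene list in KYSE150 as deposited (filled) and after centring each library on its median (open), with the medians of all genes kept as dashed and dotted lines and the counts of members past the threshold at the right. Filled circles of metallothioneins (0.52) and keratins (0.48) lie above the dashed line, those of the processome (-0.11), large-subunit (-0.13) and mitochondrial (-0.18) lists lie below 0, and lists near the dashed line change sign on centring.

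Among immune and inflammatory genes, most calls were in the list of NF-kappaB targets. Of 27 kept NF-kappaB targets, 8 rose, against 6.68% of all genes tested, and 1 fell (median 0.16, and 0.03 after centring, when 5 rose and 2 fell). Without the block 0 of the 27 rose and 1 fell. Besides SAA1 and SAA2, the rises were IER3 (0.75), PLAU (0.72), the feedback inhibitors TNFAIP3 (0.44) and NFKBIA (0.42), SOD2 (0.27) and RELA (0.27), and the fall was TNIP2. PLAU and IER3 share 916 and 359 exonic bases with genes on the opposite strand. Of 25 interferon-response genes, IFIT3 fell by 0.79 and DTX3L rose by 0.44. IFIT3 had 4.20, 4.34 and 3.37 RPKM in controls and 2.22, 1.56 and 2.51 after silencing.

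The lists of mitosis, DNA replication, cholesterol and fatty acid synthesis, the SUMO pathway, peroxisome, proteasome, class I presentation, interferon response, the NRF2 pathway and RNA interference had medians of 0.01 to 0.10 as deposited and of -0.12 to -0.02 after centring, so their sign depends on the scaling. In mitosis, 3 of 51 genes rose and 1 fell: MAD2L1 (0.45), PLK1 (0.32) and UBE2C (0.30) rose, and ANLN, the cytokinesis scaffold anillin, fell by 0.57, from a mean of 104 ± 11.0 to 69.4 ± 2.26 RPKM (SD, n = 3). Of 50 DNA replication genes GINS1 rose by 0.25 and ORC6 fell by 0.24. In vesicle traffic, 4 of 51 rose and 2 fell (median 0.13, and 0.01 after centring, when 2 rose and 2 fell), against 6.68% and 2.21% of all genes tested. Beside TMED10 and VAMP3, VAMP7, the SNARE of late endosomes and lysosomes, had 7.11, 7.38 and 8.08 RPKM in controls and 12.9, 13.97 and 14.3 after silencing, and rose by 0.83 (SE 0.07), also without the block (limma adjusted p 0.00748). SAR1A, STX5 and STX6 rose by 0.40, 0.34 and 0.25.

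Among 22 YAP targets and pathway genes, 5 rose and 2 fell as deposited, but 2 rose and 4 fell after centring (median 0.20, and 0.08 after centring), and 1 rose without the block. The rises as deposited were led by WWTR1 (0.65), which encodes the YAP partner TAZ, and LATS2 (0.56), the kinase that restrains both. LATS2 also passed without the block (limma adjusted p 0.0142). CTGF, CRIM1 and TEAD1 rose by 0.55, 0.40 and 0.36, and IGFBP3 and ANKRD1 fell, the latter by 0.54. SUMO3, a small ubiquitin-like modifier, had 28.7, 23.8 and 38.4 RPKM in controls and 52.5, 69.0 and 60.8 after silencing (change 1.01, SE 0.15), and PIAS3, a SUMO ligase, rose by 0.27, as 2 of 20 in that list. Of 37 proteasome genes PSME1 and PSMA4 fell by 0.34 and 0.30. Of 33 genes of cholesterol and fatty acid synthesis PMVK rose by 0.31. PEX3 was the 1 of 31 peroxisome genes that passed. Of 25 genes of the NRF2 antioxidant pathway and 13 genes of RNA interference 0 passed in the paired limma fit, 5 and 3 had an unadjusted p under 0.05, and voom called 2 and 3.

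KYSE510 has libraries of its own for both treatments, although both lines entered 1 fit and share its estimate of spread. Over the same genes 15 passed in KYSE510 (0.0939%), and 9 of these were called in KYSE150 with the same sign, which is 60% of the KYSE510 calls and 0.634% of the KYSE150 calls. TMED10, VAMP3, TNIP2 and the transporter gene SLC16A14 fell in both lines. KRT14, S100A9, NDRG1, COL17A1 and PTHLH, the gene of parathyroid hormone-related protein, rose in both. Their changes in KYSE510 were -0.98 for TMED10, -1.17 for VAMP3, -0.59 for TNIP2, -0.72 for SLC16A14, 1.53 for KRT14, 1.40 for S100A9, 1.11 for NDRG1, 0.90 for COL17A1 and 0.99 for PTHLH. In KYSE150 the values of the genes not given above were -0.61 for SLC16A14 and 0.41 for PTHLH.

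Of the KYSE150 rises, 674 (63.2%) were also higher in KYSE510, where 42.6% of all genes kept were higher. Of the falls, 182 (51.6%) were also lower, where 57.4% of all genes were lower. The median change in KYSE510 was 0.05 for the rises and 0.00 for the falls. All 12 largest rises and 9 of the 12 largest falls had the same sign in KYSE510, with 3 of each called there. DLG4 and HMGN5 were at most 0.0979 and 0.01725 RPKM in KYSE510, too low for their signs to count as replication. ST7-AS1_2 changed by 0.04 in KYSE510, with 0.17, -0.05 and -0.006 in its pairs 1, 2 and 3. Of the 1420 KYSE150 calls, 88 did not pass the expression filter in KYSE510. The test of the difference between lines called 0 genes in limma, with a smallest adjusted p of 0.0914, 4315 genes at an unadjusted p under 0.05, and 1463 genes called by voom. No change is therefore shown to be particular to KYSE150 by the main test.

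**Figure D4:**
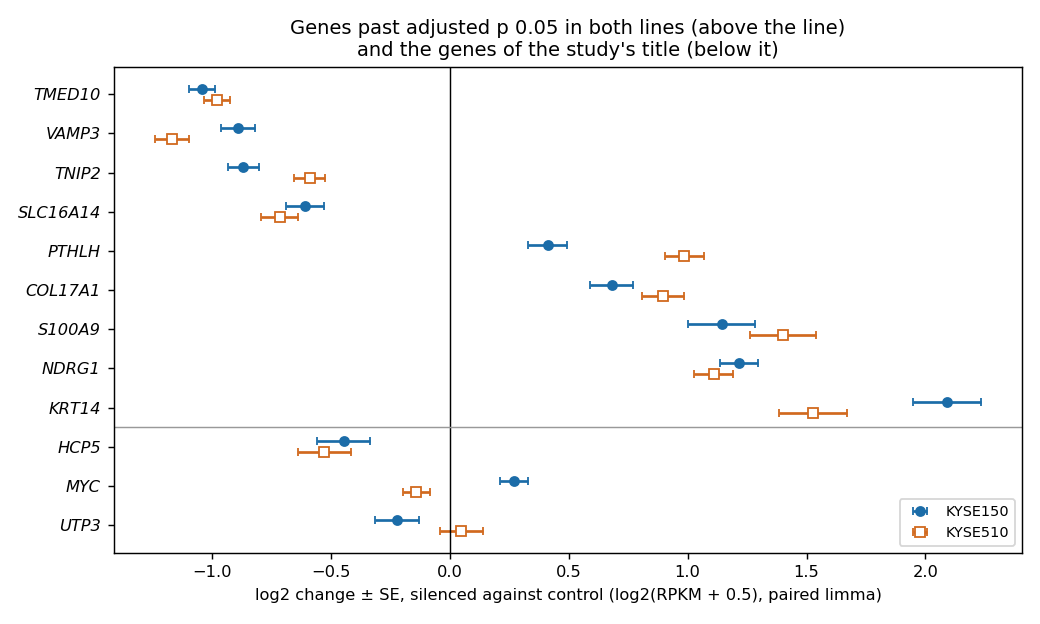
Paired log2 change ± SE (horizontal axis) in KYSE150 (filled circles) and KYSE510 (open squares) for the 9 genes past the threshold in both lines and for HCP5, MYC and UTP3. The 9 genes have the same sign in both lines by selection, HCP5 is lower in both (-0.45 and -0.53), and MYC is higher in KYSE150 (0.27) and lower in KYSE510 (-0.14). HCP5 passed the threshold in neither line (limma adjusted p 0.0522 in KYSE150 and 0.161 in KYSE510).

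Short words in the 3′ untranslated region (UTR) were counted because earlier work on these data reported them, so what follows is a description. The words came from these same data, so their shares among calls, by copies or by UTR length, are no independent support. The strand searched was that of the transcript, in the longest annotated 3′ UTR of GENCODE 29 on GRCh38, which was found for 10491 of the genes kept. The word TCACCTA was in 8.19% of these UTRs. It was in 25.6% of those of genes that fell (50 of 195), in 35.7% of those that fell by 0.5 or more (15 of 42), and in 4.99% of those that rose (40 of 801). HCP5 holds it at 2 places of its own transcript. The sites below, 25 bases each with the word in capitals, are those of HCP5 and of 4 genes that fell by 0.5 or more, and show the word in different surroundings, with 2 copies in PEX3 and NEK7.
HCP5 chr6:31464633-31464657, plus strand: tagggtctggttggTCACCTAaaga
HCP5 chr6:31465351-31465375, plus strand: ggcatcctcctatgTCACCTAgagt
TMED10 3′ UTR chr14:75134631-75134655, minus strand: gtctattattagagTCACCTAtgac
VAMP3 3′ UTR chr1:7781390-7781414, plus strand: cttacccactgtaaTCACCTAaata
PEX3 3′ UTR chr6:143489273-143489297, plus strand: atacactgggtaaaTCACCTAtact
PEX3 3′ UTR chr6:143489888-143489912, plus strand: ttgatgctgtttacTCACCTAatta
NEK7 3′ UTR chr1:198319663-198319687, plus strand: tcattttgtaccagTCACCTAaatc
NEK7 3′ UTR chr1:198321786-198321810, plus strand: tctaatttatatagTCACCTAtaaa

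Further genes that fell and hold the word have unrelated known roles. UBE2K, an E2 ubiquitin-conjugating enzyme with 1 such site, had 42.3, 43.8 and 34.1 RPKM in controls and 24.2, 24.0 and 23.1 after silencing (change -0.73, SE 0.07). TMA16, a translation-associated gene with 1 site, had 9.35, 9.36 and 8.92 RPKM against 5.68, 5.54 and 5.82 (change -0.65, SE 0.06). NEK7, a mitotic kinase with 2 sites, had 2.41, 1.70 and 3.01 RPKM against 1.29, 1.14 and 1.65 (change -0.61, SE 0.09, and -0.65 in KYSE510 at a limma adjusted p of 0.0832). The anillin gene ANLN holds 1 copy as well.

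By number of copies, 1.51% of 9632 genes without the word fell, 5.30% of 773 genes with 1 copy, and 10.5% of 86 genes with 2 or more. Rises ran the other way, at 7.90%, 4.92% and 2.33%. UTRs with more copies are longer, with medians of 1244, 2893 and 5648 bases. The part of UTR length in these shares was not tested. Within 5 bins of UTR length, each with the same number of genes to within 1, the share that fell was higher with the word than without it in every bin. In bin 2 (459 to 993 bases, 67 genes with the word) it was 17.9% against 1.97%, in bin 3 8.73% against 1.22%, in bin 4 5.53% against 0.957%, and in bin 5, the longest, 3.09% against 0.835%. In bin 1, the shortest, it was 7.14% against 2.37%, but there 2 of 28 genes with the word fell. The median change of genes with the word was 0.06, against 0.11 without it, and in KYSE510 -0.05 against -0.02. Of the 859 genes with the word, 769 were not called.

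A second group of words, GTATAAA with the overlapping words TGTATAA as well as GTATAAG, was in 26.9% of all 3′ UTRs, in 38.6% of those of genes that rose and in 22.1% of those that fell. Genes with 2 or more copies rose in 12.6% of cases, those with 1 in 8.70% and those without in 6.42%. Within the same 5 bins of UTR length, 9.09% to 11.6% of genes with such a word rose, against 5.68% to 7.63% of those without. No match to a reagent was made, since no reagent sequence is given in the sources used here.

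**Figure D5:**
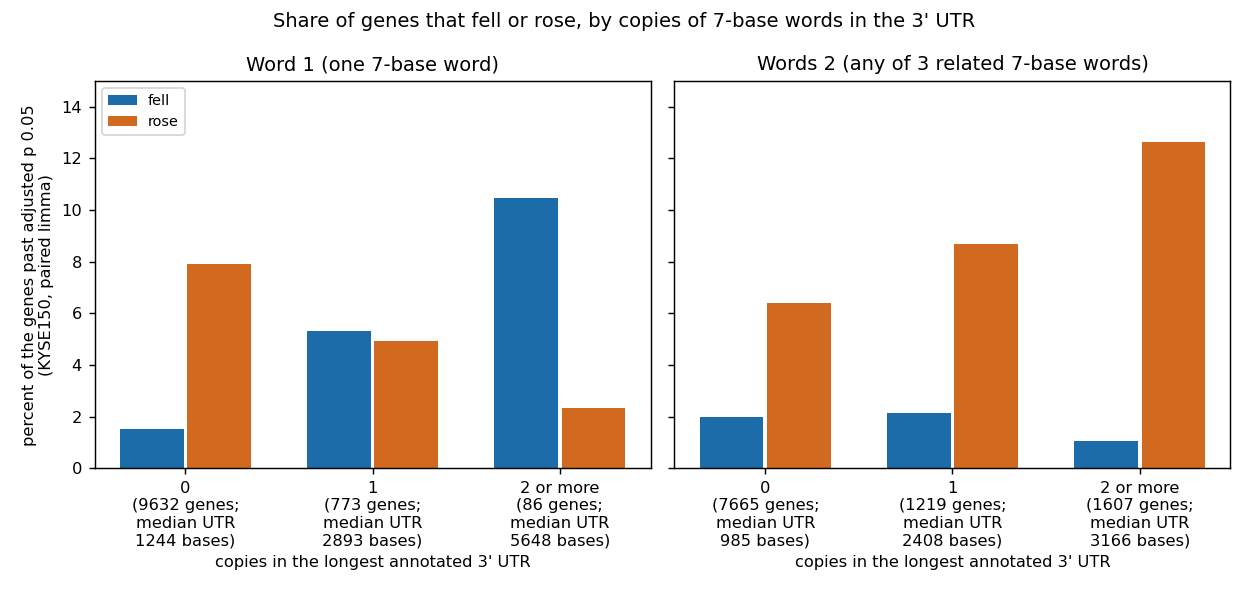
Percent of genes (vertical axis, from 0) that fell or rose in KYSE150 by copies of TCACCTA (left, word 1) and of GTATAAA with its 2 relatives (right, words 2) in the longest annotated 3′ UTR, with the number of genes and the median UTR length under each pair of bars. Falls go from 1.51% to 10.5% with copies of the first word, and rises from 6.42% to 12.6% with copies of the second group.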

How the data were processed

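RNA-seq of 12 libraries was deposited as 1 table of RPKM values for 38516 genes. The submitters' processing notes name HISAT2, DESeq and the build GRCh38, with no version or role; the counting program, annotation and use of strand are not given in the sources used here. The authors' RPKM were used as deposited. RPKM times exon length gave whole reads for 100% of values (tolerance 0.01), which sum to the depths reported, so the values are relative to the gene-assigned reads. Depth of 20035025 to 28202422 reads means that 3 reads on 1 kb equal 0.106 to 0.150 RPKM. Poisson intervals (95%, exact) cover counting error only. Between replicates of a KYSE150 group, chi-square divided by the number of genes was 11.97 to 42.2, so none was a copy.

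Genes with RPKM of 0.5 or more in 3 of the 6 KYSE150 libraries were fitted with limma 3.58.1 (R 4.3.3) on log2(RPKM + 0.5) over all 12 libraries, with the replicate number within each line as a block and a silencing effect per line (4 residual degrees of freedom), eBayes with trend, two-sided, and Benjamini-Hochberg adjustment over 15971 genes at 0.05. The numbers come from the titles. Libraries were paired by these numbers because the comparison is defined that way. Across genes, the deviations of same-numbered libraries from their group means correlated at 0.309, 0.164 and 0.440 in KYSE150 and 0.273, 0.396 and 0.282 in KYSE510. Between others they correlated at -0.402 to 0.189. KYSE150 control replicate 2 correlated more with silenced replicate 1 (0.189) than with silenced replicate 2 (0.164), so pair 2 is not set apart by this measure. Alternatives were the fit without the block, the 6 libraries alone, pseudocounts of 0.1 and 1, 2 other filters, centring, quantile normalization, thinning, voom, and leaving out a pair.

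Named genes have an adjusted p under 0.05, a mean RPKM of 1 or more, 1 sign in 3 pairs and no overlap of groups, without date or clone names or genes on several chromosomes: the 12 largest rises and 12 largest falls, to which HCP5, MYC, UTP3 and up to 3 called members per list were added. Further called members of a list, UBE2K, TMA16, NEK7, LDHA, VEGFA and CD68 were named after their values were seen. The comparison, its members and all gene lists were chosen with earlier results of these data known. List counts and UTR words are descriptions without a test. The fit was also run on simulated data with a shared effect built into each pair, so that run cannot check the pairing. GENCODE 29 matched 12773 genes by name for gene types, exon overlaps and 3′ UTRs. Some called genes and 1 site are not reported here.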

Additional observations from a re-analysis of the deposited data

Results flagged for a closer look

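In 6 of the named genes every KYSE150 pair moved one way and every KYSE510 pair the other. The differences, KYSE510 minus KYSE150 on the log2(RPKM + 0.5) scale, were -0.50 for BCL2L1, 0.63 for MT-ND3, -0.41 for MYC, 0.56 for RPL26, -0.53 for TNFRSF1A and -0.66 for TRIB3. The difference itself was tested in the paired limma fit and passed for none of them, with adjusted p-values of 0.11, 0.105, 0.107, 0.101, 0.0933 and 0.115 in the same order. BCL2L1, MYC, TNFRSF1A and TRIB3 were higher and MT-ND3 and RPL26 lower in silenced KYSE150 cells. Opposite signs in all 3 pairs of each line are a description only. Groups of 3 libraries were too small for a check of single outlying libraries.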

How the results depend on the processing

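Each setting changed 1 choice at a time, except voom, which started from recovered reads, added weights and dropped the trend. The change of HCP5 kept its sign in every setting run, and was past the threshold after centring (-0.57), quantile normalization (-0.73) and voom (-0.81) only. MYC kept its sign too, and missed the threshold without the replicate block (0.27, SE 0.27), with the 6 libraries alone (0.27), with no filter (0.27), after centring (0.14), after quantile normalization (0.16) and with a pair left out (0.22 to 0.31). UTP3 passed in no setting. The count of 1420 genes became 96 without the replicate block, 8 with the 6 libraries alone (2 residual degrees of freedom), 230 of 32575 with no filter, 3483 with voom, and 0 to 165 with a pair left out (leaving out 1 library is here the same as leaving out its pair). Genes whose change differed between lines numbered 1463 with voom, and 0 to 1 with a pair left out. The KYSE510 count of 15 became 2 without the replicate block, 2 with no filter, 31 with the stricter filter of an RPKM of 1 in all 6, 4 after centring, 8 after thinning, 281 with voom and 2 to 5 with a pair left out. Among the named genes 708 of the values under other settings stayed past the threshold, 461 did not, and 0 changed sign. The share of fallen genes with TCACCTA was 26.7% over UTRs of any transcript and ran from 15.2% (voom) to 77.8% (without pair 2, 7 of 9 genes) where 9 or more genes fell. It was 64.7% without the block (11 of 17), and with the 6 libraries alone the 1 gene that fell held the word. The restriction to genes kept in both lines (1441 of 14544 called) and the word share under each fit were added after seeing the data. The causes of these differences were not tested. Low genes such as HCP5, with 26 to 56 reads, are limited by depth.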

Other observations

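By annotated type, processed pseudogenes stood on the side of the falls: of 720 kept, 7 rose and 39 fell, at a median of -0.04 in KYSE150 and -0.13 in KYSE510, while of 10572 protein-coding genes 806 rose and 197 fell (median 0.11). Among 177 small nucleolar RNA genes 3 rose and 5 fell, and among 140 long intergenic non-coding genes 4 rose and 1 fell. Falls were more frequent among short genes. From the shortest to the longest of 5 equal bins of exon length, rises numbered 168, 202, 225, 237 and 235 and falls 109, 86, 62, 46 and 50, with medians between 0.08 and 0.11 throughout. CYP1A1, a xenobiotic-metabolizing enzyme outside the lists and named after its values were seen, had 6.68, 7.76 and 8.09 RPKM in controls and 3.46, 4.86 and 5.02 in silenced libraries (change -0.71, SE 0.09, limma adjusted p 0.0164).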
